A study of Mus musculus with 96 samples.

Results

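Transcripts of 9 carbonic anhydrase genes, Car2, Car3, Car4, Car5b, Car8, Car12, Car13, Car14 and Car15, were followed across the mouse glomerulus and 14 microdissected segments of the renal tubule. The 9 genes were found by symbol in the deposited table, out of 16 carbonic anhydrase genes and 54532 genes in all. All groups were male C57BL/6 mice aged 6 to 8 weeks, kept free of specific pathogens on normal chow, and the labels name no treatment or engineered allele. The groups, in anatomical order, were the glomerulus (GL), the first convoluted (PTS1), cortical straight (PTS2) and outer-stripe straight (PTS3) parts of the proximal tubule, the descending thin limb of short loops (DTL1), the outer (DTL2) and inner (DTL3) medullary descending thin limbs of long loops, the ascending thin limb (ATL), the medullary (MTAL) and cortical (CTAL) thick ascending limbs, then the distal convoluted (DCT) and connecting (CNT) tubules, and the cortical (CCD), outer medullary (OMCD) and inner medullary (IMCD) collecting ducts. The 93 samples, 87 of tubule and 6 of glomerulus, held 53 combinations of mouse number and segment, each counted as 1 mouse, with 5 mice in PTS2, in CTAL and in CCD, 4 each in ATL and OMCD, and 3 in each other group.

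Abundance was given as TPM (length-corrected transcript abundance scaled to the same total per sample), which allows genes to be compared within a sample but keeps no record of sequencing depth. Values are TPM per mouse, or means ± SD over mice, and the number of mice limits their precision. The labels do not say whether mice with the same number in different segments were the same animal. A bulk level cannot tell fewer cells of a type from less RNA per cell.

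Carbonic anhydrases speed the exchange of carbon dioxide and water with bicarbonate and a proton, and so supply the acid and base that kidney transporters move. In the proximal tubule, cytosolic and surface enzymes act together with apical proton secretion and basolateral bicarbonate exit in bicarbonate reabsorption. In the collecting duct, the cytosolic enzyme of intercalated cells feeds the proton pump and anion exchangers that secrete acid (type A cells) or base (type B cells). Car2, Car3 and Car13 encode cytosolic enzymes, of which Car3 has low hydratase activity and Car2 is the one whose loss is known to cause renal tubular acidosis. Car4 and Car15 encode enzymes held on the cell surface by a lipid anchor, and Car12 and Car14 encode membrane-spanning enzymes whose catalytic domain faces outward. Car5b encodes a mitochondrial enzyme, and Car8 a related protein without catalytic activity that binds an inositol trisphosphate receptor.

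The active enzymes hold a zinc ion with 3 histidines, and the codons around the first pair are shown for 8 members because they are the part of the catalytic site that these members share. The sequences were read from GENCODE M21 coding sequences, and capitals mark the codons aligned with codons 94 and 96 of Car2.
Car2: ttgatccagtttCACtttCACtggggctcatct
Car3: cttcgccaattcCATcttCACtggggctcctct
Car13: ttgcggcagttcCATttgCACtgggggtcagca
Car4: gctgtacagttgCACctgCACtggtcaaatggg
Car15: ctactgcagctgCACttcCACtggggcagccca
Car12: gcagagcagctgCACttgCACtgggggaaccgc
Car14: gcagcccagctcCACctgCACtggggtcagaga
Car5b: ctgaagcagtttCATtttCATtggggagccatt
These 8 members have histidine codons at all 3 zinc positions. Over their aligned residues the predicted proteins were 33.3% (Car4) to 56.9% (Car3) identical to Car2, with Car13 at 56.5%. The longest run of identical coding bases between Car2 and Car13 was 30 bases, and it was 14 bases between Car4 and Car15 and between Car12 and Car14. In the RefSeq table of GRCm38.p6, Car13, Car1, Car3 and Car2 are consecutive protein-coding genes on chromosome 3, and their patterns below differ.

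The markers fixed for each cell type matched the labels in most groups. Podocyte genes summed to 7275 to 8382 TPM in GL, proximal genes to 9348 to 10677 TPM in PTS1, thick limb genes to 40518 to 45793 TPM in CTAL, and Slc12a3, the thiazide-sensitive cotransporter, averaged 5782 TPM in DCT. DTL1 also held proximal markers (1041 to 4214 TPM, of which Kap made up 1030 to 4198) and endothelial markers (2764 to 3652 TPM), with Aqp1 at 16.5, 48.6 and 227 TPM in its 3 mice against a mean of 6582 TPM in DTL2. Between 23597 and 29280 genes reached a TPM of 1 in GL mice and 26044 to 29454 in DTL1, against 11474 to 11720 in PTS2, and the 4 ATL mice ranged from 13532 to 24647. In DCT mouse 1 the proximal gene Slc34a1 stood at 158 TPM against 2.29 and 3.10 in the others, in CCD mouse 4 at 47.6 TPM against 7.89 to 17.9, and in MTAL mouse 2 at 1.90 TPM against 0 and 0. CNT mouse 1 read 17.7 TPM against 4.12 and 2.63. DTL2 mouse 2 read 22.5 TPM against 1.05 and 0.347. In CCD the whole proximal list summed to 451 TPM in mouse 3 and 491 TPM in mouse 4, against 100 to 141 TPM in the others. Kap made up 439 and 437 TPM of these 2 sums. The calls that changed without MTAL mouse 2, DCT mouse 1 and CCD mouse 4 are given below, with the differences of Car15 in MTAL and of Car4 in DCT with and without them.

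All 9 members passed the filter on low values and differed among the 15 groups in limma's moderated F-test, which 93.9% of all 33793 genes tested also passed. Summed over the members, transcripts were highest in CNT at 6843 ± 214 TPM (SD, n = 3), followed by CCD at 5769 ± 551 (n = 5), CTAL at 3171 ± 555 (n = 5), OMCD at 2956 ± 480 (n = 4), DTL2 at 2408 ± 752 (n = 3) and PTS1 at 2225 ± 231 TPM (n = 3). The sum was 17.5 ± 3.24 TPM (n = 3) in PTS3, the lowest of the 15 groups, and 6 members (Car2, Car3, Car12, Car13, Car14 and Car15) had their lowest mean there. The 4 surface enzymes together held 88.7% ± 0.825 of the sum in PTS2, 84.2% ± 5.66 in DTL2 and 83.4% ± 3.68 in CTAL, each through a different gene (Car4, Car14 and Car15). In OMCD the surface share was 21.2% ± 2.73, and in IMCD 1.42% ± 0.610. Per transcript of Car2, surface enzymes stood at 11.4 ± 1.03 in PTS2, 0.595 ± 0.0110 in PTS1 and 0.278 ± 0.0439 in OMCD.

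**Figure D1:**
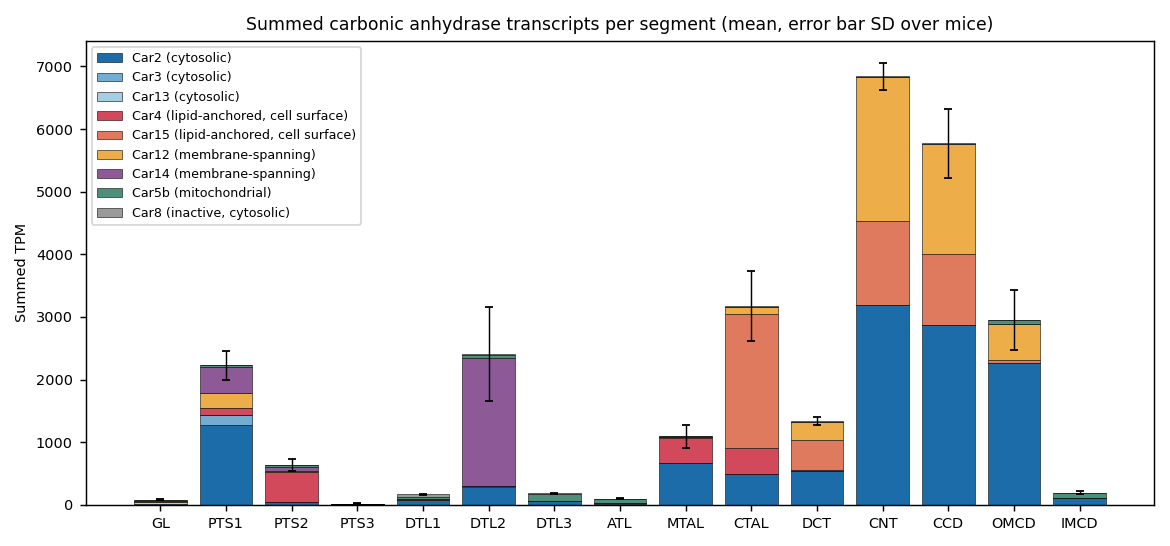
Stacked bars show the mean TPM of each of the 9 genes in the 15 groups along the nephron, with the SD of the summed TPM over 3 to 5 mice as the error bar. The bars are tallest in CNT (6843 TPM) and CCD (5769 TPM), almost vanish in PTS3 (17.5 TPM), and change their main gene from Car2 in PTS1 to Car4 in PTS2, Car14 in DTL2 and Car15 in CTAL.

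Car2, the main cytosolic enzyme, was the only member with a mean above 10 TPM in 13 of the 15 groups. Its 3 CNT mice stood at 3150, 3191 and 3223 TPM, the CCD mice at 2645 to 3097 with a median of 2941, and the OMCD mice at 1941, 2121, 2300 and 2664. CNT lay above every CCD mouse, while CCD and OMCD overlapped. PTS1 held the next level, with mice at 1174, 1255 and 1410 TPM, and the straight proximal tubule fell away from it, to 38.5 to 62.7 TPM in PTS2 and 3.91, 4.12 and 5.0 TPM in PTS3. No mouse of these 3 proximal groups overlapped with another group of the 3. A second plateau ran through the thick limb and DCT, with 668 ± 99.1 TPM in MTAL (n = 3), 494 ± 29.9 in CTAL (n = 5) and 538 ± 36.6 in DCT (n = 3), of which DCT and CTAL overlapped. Single pieces of DCT mouse 3 read 290 and 851 TPM. DTL2 mice stood at 285, 289 and 293 TPM, above DTL1 (63.9 to 77.3) and DTL3 (34.6 to 70.7), which overlapped. IMCD held 85.2, 107 and 112 TPM, while ATL (12.5 to 23.1 TPM) and GL (6.00 to 10.7 TPM) were lower.

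Car3, the low-activity cytosolic enzyme known from muscle and fat, was abundant in a single group. PTS1 mice stood at 78.4, 153 and 219 TPM, and no mouse of another group exceeded 11.2 TPM, the value of ATL mouse 4. PTS2 mice lay at 0.0800 to 0.315 TPM, and Car3 was listed at 0 in all 3 PTS3 mice. It was higher in PTS1 than in each of the other 14 groups, with a smallest log2 difference of 4.27, against DTL1 (limma intersection-union test, adjusted p = 1.31e-09), a call that 8.80% of all genes reached for some group. Adipocyte markers summed to 9.54 to 21 TPM in PTS1 and to 296 to 552 TPM in DTL1, where Car3 stood at 6.38 to 6.67 TPM. Skeletal muscle markers summed to 0.400 to 0.775 TPM in PTS1, and the part of either tissue in the Car3 level was not tested. In DCT mouse 1, one of the mice with raised Slc34a1, Car3 read 6.71 TPM against 0.255 and 0.150 in the others, from pieces at 0.0900 and 13.3 TPM.

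Car13, the remaining cytosolic enzyme, marked the glomerulus. The 3 GL mice read 28.7, 29.2 and 29.6 TPM, and the highest mouse elsewhere was DTL1 mouse 5 at 5.25 TPM. GL exceeded each of the other groups by a log2 difference of at least 2.85, the value against PTS1 (intersection-union test, adjusted p = 8.47e-09). In PTS1 it stood at 3.02 to 3.52 TPM, and 11 groups had means under 1 TPM. The glomerular pieces also held endothelial (2993 to 3058 TPM), smooth muscle (240 to 346 TPM), leukocyte (542 to 796 TPM) and erythroid (193 to 555 TPM) markers beside podocyte genes, and which of these cells carried Car13 was not tested.

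Car4, the lipid-anchored enzyme of the proximal brush border, had its levels in separate stretches of the nephron. The 5 PTS2 mice ranged from 355 to 598 TPM with a median of 490, the 3 MTAL mice stood at 351, 384 and 462, and the 5 CTAL mice ranged from 371 to 452 with a median of 417, so that the ranges of these 3 groups overlapped. PTS1 followed at 61.8, 111 and 150 TPM, below every mouse of the first 3 groups. Between these stretches it was nearly lacking: 0, 0 and 0.485 TPM in PTS3, 0 to 5.58 in the descending limbs and 0 to 1.09 in ATL. DCT read 6.04, 7.77 and 15.2 TPM, the last in mouse 1, and no other segment after it had a mean above 3.23 TPM. IMCD was lowest, with 0, 0 and 0.0833 TPM. In GL, with 2993 to 3058 TPM of endothelial markers, Car4 stood at 1.20 to 1.55 TPM. Endothelial cells are known to carry Car4, and their part in its levels was not tested.

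Car15, the other lipid-anchored enzyme, was abundant from CTAL to CCD. The CTAL mice read 1388, 1780, 2112, 2636 and 2812 TPM, the CNT mice 1174, 1393 and 1444, the CCD mice 805 to 1626 with a median of 1165, and the DCT mice 406, 512 and 543. CTAL overlapped with CNT and CNT with CCD, while DCT lay below all of them. Single pieces of DCT mouse 3 read 221 and 592 TPM. The medullary thick limb lacked most of it, with 0.145, 0.600 and 34.7 TPM, the last in mouse 2, whose 2 pieces read 1.66 and 67.7. OMCD held 20.4 to 107 TPM, IMCD 0.900 to 2.81, and the 3 proximal groups 0 to 2.27. Car4 and Car15 therefore met in CTAL (413 ± 29.0 and 2145 ± 590 TPM, n = 5), while MTAL and PTS2 held mainly Car4, and CNT and CCD mainly Car15.

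Car12, a membrane-spanning enzyme, had its highest levels, like Car2, in CNT and CCD. The CNT mice read 2171, 2304 and 2419 TPM, the CCD mice 1504 to 2120 with a median of 1691, the OMCD mice 382, 437, 686 and 819, and the DCT mice 270, 286 and 288. By mouse, no 2 neighbours among these 4 groups overlapped. Single pieces of DCT mouse 3 read 154 and 386 TPM, and the lowest OMCD piece read 375 TPM. PTS1 held 220, 257 and 261 TPM and CTAL 80.6 to 127, while PTS2 had 12.1 to 25.7. In PTS3 (0.00500 to 0.235 TPM), MTAL (1.10 to 1.76) and IMCD (0.773 to 1.14) it was close to 0, although Car2 remained at 588 to 779 TPM in MTAL and 85.2 to 112 TPM in IMCD. The ratio of Car12 to Car2 was 0.721 ± 0.0431 in CNT, 0.612 ± 0.105 in CCD, 0.252 ± 0.0588 in OMCD, 0.210 ± 0.0472 in CTAL and 0.00208 ± 0.000793 in MTAL.

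Car14, the other membrane-spanning enzyme, had the sharpest borders among the members. DTL2 mice read 1188, 2359 and 2584 TPM, while DTL1 stood at 0, 0.360 and 3.40 and DTL3 at 0, 0 and 1.18. The proximal tubule fell from 365, 391 and 464 TPM in PTS1 to 52.3 to 95.0 in PTS2, and Car14 was listed at 0 in all 3 PTS3 mice. GL held 11.2, 11.6 and 11.9 TPM. In the 7 segments from MTAL to IMCD all mice were at or below 0.760 TPM except DCT mouse 1 at 6.96 and CCD mouse 4 at 2.78, the mice with the highest Slc34a1 in their groups. CCD mouse 3, with Kap at 439 TPM against 437 TPM in mouse 4, read 0.125 TPM of Car14. Car14 was higher in DTL2 than in each of the other 14 groups, with a smallest log2 difference of 2.25, against PTS1 (intersection-union test, adjusted p = 0.00253), and this call was lost with a pseudocount of 0.1 (2.25, adjusted p = 1.0) and with median ratio rescaling (1.13, adjusted p = 1.0). Of the proximal markers, Slc34a1 stood at 1.05, 22.5 and 0.347 TPM in DTL2 mice 1, 2 and 3, against 9164 to 9764 TPM in PTS1, and Kap at 441, 113 and 137 TPM in the same DTL2 mice, most of the list's sum of 140 to 447 TPM there, against 742, 15.2 and 3.95 TPM in PTS1. The part of proximal cells in the DTL2 level was not tested.

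Car5b, the mitochondrial enzyme, had means of 5.98 to 102 TPM and was under 1 TPM in no group. DTL3 mice read 91.4, 99.5 and 116 TPM, above the IMCD mice at 75.5, 77.7 and 87.4, and the ATL (53.9 to 72.2) and OMCD mice (52.8 to 64.6) overlapped below them. The 4 highest means all lay in the medulla. CCD (11.9 to 15.3 TPM), PTS3 (9.18 to 16), CNT (9.61 to 11.7), MTAL (7.37 to 12.8) and CTAL (8.79 to 10.3) overlapped in turn, and GL (5.05 to 6.75) and DCT (5.63 to 6.35) were lowest and overlapped. Its 5 PTS2 mice ranged only from 20.4 to 23.5 TPM.

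Car8, which encodes the member without catalytic activity, was low throughout and highest in DTL1 at 30.5, 37.3 and 44.3 TPM, above DTL2 (15, 15.3 and 18.1), DTL3 (9.66, 15.8 and 17.5) and DCT (10.9, 13.2 and 14.0), which overlapped in turn. Its smallest log2 difference from another group was 1.15, against DTL2, and it missed the threshold for marking DTL1 (intersection-union test, adjusted p = 0.0645). That test passed without DTL1 mouse 1 (1.28, adjusted p = 0.0485), ATL mouse 6, IMCD mouse 1 or IMCD mouse 3 (1.15 each, adjusted p = 0.0167, 0.0183 and 0.0330). The same test passed with ATL mice 2 and 3 alone and with ATL mice 4 and 6 alone (1.15 each, adjusted p = 0.00885 and 0.0385). The contrast of DTL1 with DTL2, which sets this margin, was itself lost in several fits given below. The all-gene median also lay 0.54 higher in DTL1 than in DTL2. IMCD mice read 0.900, 8.85 and 16.5 TPM, and pieces of 1 mouse spanned more TPM than the mice, from 1.97 to 20.9 in mouse 2 and from 4.11 to 28.0 in mouse 3. PTS1, PTS2 and PTS3 mice were at or below 1.01 TPM.

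**Figure D2:**
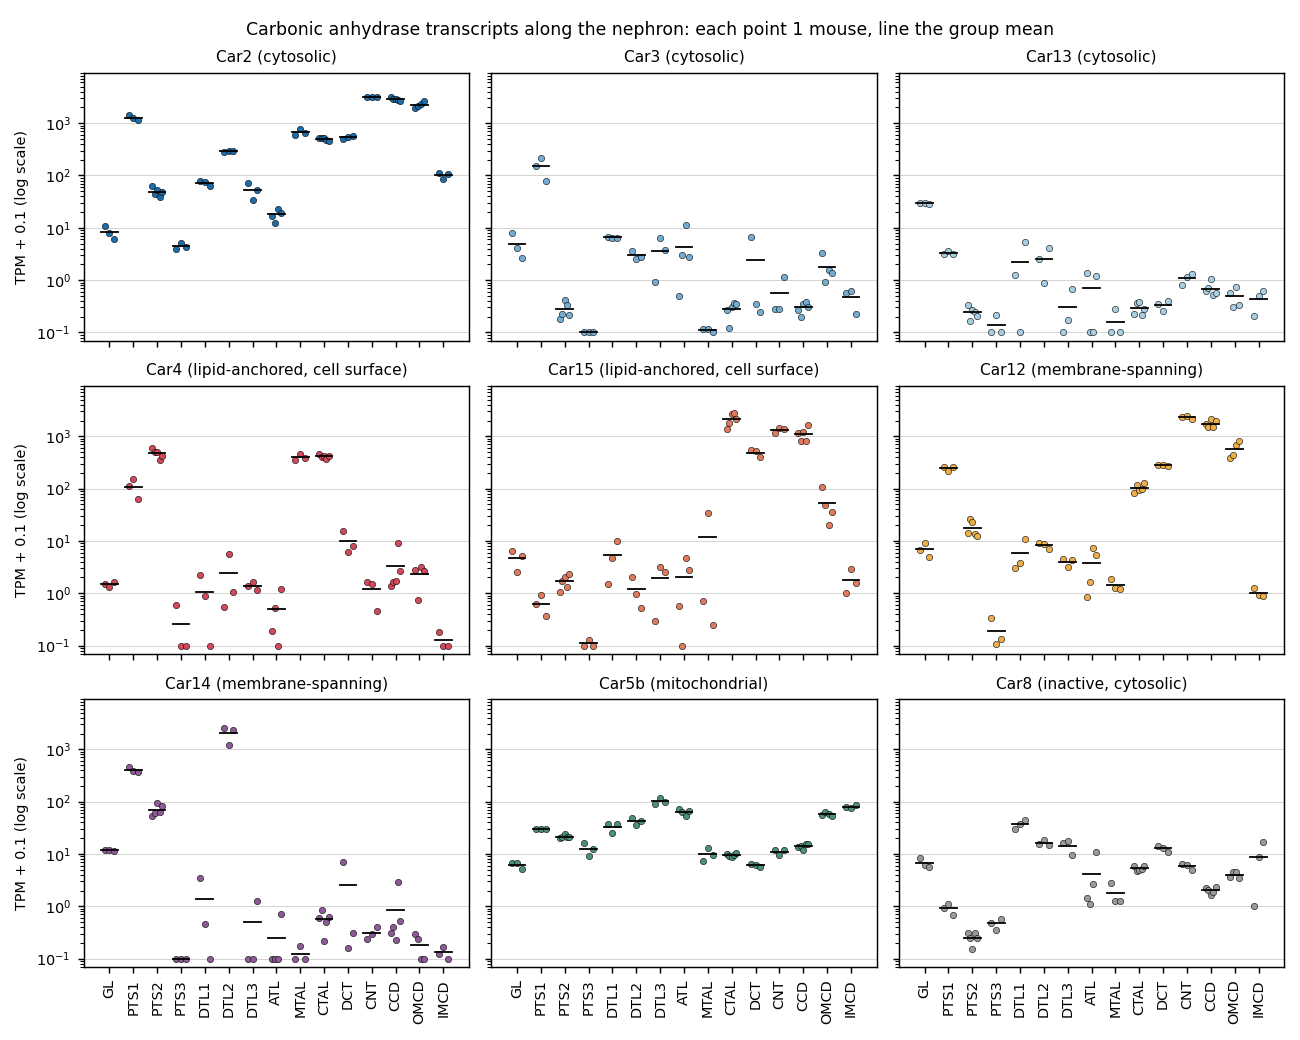
Each panel plots 1 gene, with TPM + 0.1 on a log scale against the 15 groups in anatomical order, each point a mouse and each line a group mean. Car2 is present in nearly every group, Car3 stands out in PTS1 and Car13 in GL, Car4 has separate stretches in PTS1 to PTS2 and in MTAL to CTAL, Car15 and Car12 are high distally, and Car14 rises to 2044 TPM in DTL2 between neighbours near 0.

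Neighbouring segments were compared next, by two-sided limma contrasts with Benjamini-Hochberg adjustment over all genes. Calls needed an adjusted p under 0.05 and a log2(TPM + 1) difference of at least 1. DTL1 and DTL2, which belong to short and long loops and do not follow each other, are counted here as neighbours. The scale understates changes of genes near 0. Of 135 tests of a member between neighbours 66 were called, from 5 for Car13 to 10 for Car12 and 11 for Car2. The share of all genes called ran from 1.12% (CNT to CCD) to 65.5% (PTS3 to DTL1) over the 15 comparisons. Of the 66 calls, 45 held in every alternative fit and without any single mouse. Leaving out MTAL mouse 2, DCT mouse 1 and CCD mouse 4 together ended 2 of the calls, those of Car8 from MTAL to CTAL (1.19, adjusted p = 0.112) and from CTAL to DCT (1.07, adjusted p = 0.185), and added that of Car15 from PTS2 to PTS3 (1.33, adjusted p = 0.0380, against 0.101 with all mice). The all-gene median itself lay 0.15 higher in PTS1 than PTS2, 0.54 higher in DTL1 than DTL2, 0.20 higher in DTL3 than DTL2, 0.28 higher in DTL3 than ATL, 0.48 higher in ATL than MTAL, 0.30 higher in OMCD than CCD and 0.32 higher in OMCD than IMCD. Quantile normalization brought it to between -0.07 and 0.05 in all 15 comparisons. Each comparison's share of called genes over the whole table is given with it, as are 28 acid-base partner genes, a fixed list of transporters, pump subunits and regulators, all 28 of which passed the filter.

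From GL to PTS1 all 9 members changed, against 51.9% of all genes. Car2 rose by 7.23 (SE 0.18), Car4 by 5.59, Car12 by 5.08, Car14 by 5.03, Car3 by 4.71 and Car5b by 2.12 log2 units in PTS1, while Car13, Car8 and Car15 were lower there. The all-gene median lay 0.96 higher in GL, and 0.45 or 0.01 after median ratio or quantile scaling. The calls of Car8 and Car15 were lost with quantile normalization (0.66 and 0.44), and that of Car15 also with median ratio rescaling (1.08, adjusted p = 0.112). A pseudocount of 5 ended both as well (0.99 and 0.76). Of the partners, 6 were higher in PTS1 and 7 in GL. Slc4a4, the basolateral sodium bicarbonate cotransporter, averaged 590 TPM in PTS1 and 3.25 TPM in GL, and Slc9a3, the apical sodium proton exchanger, 38.4 and 1.5 TPM.

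Along the proximal tubule 5 members fell at the first border and 4 at the second, while Car4 rose before it fell. From PTS1 to PTS2 6 members passed against 9.57% of all genes: Car3 fell by 6.88, Car2 by 4.69, Car12 by 3.82, Car14 by 2.55 and Car13 by 1.87, and Car4 alone rose, by 2.16 (SE 0.39, adjusted p = 2.46e-05). With a pseudocount of 5 the call of Car13 was lost (0.67). The median size of the difference was 2.16 over the members and 0.28 over all genes. From PTS2 to PTS3 4 members passed, all lower in PTS3, against 4.70% of all genes: Car4 fell by 8.66 (SE 0.39, adjusted p = 1.59e-21), Car14 by 6.11, Car12 by 4.0 and Car2 by 3.24. Car15, at means of 1.60 and 0.0100 TPM, was 1.33 lower in PTS3 and not called (adjusted p = 0.101), but was called with a pseudocount of 0.1 (3.89), median ratio rescaling (1.75) and quantile normalization (1.84), which also called it higher in PTS2 than PTS1 (1.42). The partners went the same way at the second border, where 7 of 28 passed and all 7 were lower in PTS3, while 3 were higher in PTS1 and 2 in PTS2 at the first. Slc4a4 stood at 590, 118 and 9.21 TPM and Slc9a3 at 38.4, 14.9 and 0.0150 TPM in PTS1, PTS2 and PTS3, and Slc34a1 at 9502, 5659 and 44.2 TPM. Kap, an androgen-regulated proximal transcript, averaged 75375 TPM in PTS3.

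Entering the thin limbs, 7 members were higher in DTL1 than in PTS3, against 65.5% of all genes called in that comparison, and 8 were higher in DTL2, against 40.0%. The table as a whole shifted, by an all-gene median of 1.33 log2 units towards DTL1 and 0.71 towards DTL2. Quantile normalization left 2 of the 7 calls at DTL1 and 5 of the 8 at DTL2, and the share of all genes called after it was not computed. At DTL1 the same normalization brought Car3 from 2.83 to 0.97, Car12 from 2.46 to 0.15 and Car15 from 2.35 to 0.52. Car5b (1.35) and Car13 (1.20) turned to slightly higher in PTS3 (0.07 and 0.13) and were not called. With median ratio rescaling Car5b was 0.04 and Car13 0.93 higher in DTL1, neither of them called. At DTL2 the calls of Car4, Car5b and Car13 were lost with quantile normalization (0.34, 0.61 and 0.69), and those of Car4 and Car5b with median ratio rescaling (0.90 and 0.53). Car8 rose by 4.81 and Car2 by 3.80 at DTL1, and Car14 by 10.91 (SE 0.42, adjusted p = 2.89e-25), Car2 by 5.80 and Car8 by 3.66 at DTL2. Without DTL1 mouse 5 the call of Car13 was lost (0.50, adjusted p = 0.124), and Car4 and Car14, which had not passed at DTL1, were called at 1.08 and 1.29. Car14 was also called there without DTL1 mouse 3 (1.07). A pseudocount of 0.1 added calls of Car4 (1.98) and Car14 (2.43), higher in DTL1, and of Car15 (2.42), higher in DTL2. The call of Car4 at DTL2, at 1.16, was lost without DTL2 mouse 2 (0.49, adjusted p = 0.364) and without PTS3 mouse 2 or 3 (1.07 each). DTL2 mouse 2 read 5.58 TPM of Car4 against 0.450 and 0.943, with endothelial markers at 1871 TPM against 1018 and 1194 and the raised Slc34a1 given above, and their part in the Car4 level was not tested. With a pseudocount of 5 the calls of Car13 and Car15 at DTL1 (0.43 and 0.94) and of Car3, Car4 and Car13 at DTL2 (0.65, 0.43 and 0.53) were lost. Members' median sizes were 2.35 and 1.92, against 1.41 and 0.80 over all genes. Among the partners, 13 were higher in DTL1 and 1 in PTS3, and 11 were higher in DTL2 and 2 in PTS3.

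Within the descending limbs 4 members passed between DTL1 and DTL2, against 28.2% of all genes. Car14 was 10.05 (SE 0.42) and Car2 2.0 (SE 0.18) log2 units higher in DTL2, and Car8 (1.15) and Car15 (1.49) were higher in DTL1. Both of the last calls were lost without DTL2 mouse 3 (1.10, adjusted p = 0.0534, for Car8 and 1.25, adjusted p = 0.124, for Car15) and without DTL1 mouse 5 (1.02 and 0.95, adjusted p = 0.07 and 0.229). That of Car15 was also lost without DTL1 mouse 3 or DTL2 mouse 2 (1.47 and 1.42, adjusted p = 0.0668 and 0.0802), and with a block for mouse number (1.37, adjusted p = 0.0583). With median ratio rescaling neither was called (0.99 for Car8 and 1.23 for Car15), nor with a pseudocount of 5 (0.99 and 0.68). Car8 was also lost with a pseudocount of 0.1 (1.19, adjusted p = 0.0915), and Car15 with pieces averaged as TPM (1.39, adjusted p = 0.0927). Quantile normalization brought Car15 to 0.44 (adjusted p = 0.608) and added a call of Car12, 1.73 higher in DTL2 (adjusted p = 5.22e-07). Without DTL1 mouse 5, Car12 and Car13 were called higher in DTL2, by 1.08 and 1.10. Slc9a3 averaged 295 TPM in DTL2 against 2.38 in DTL1 and 1.39 in DTL3, its highest mean, in the segment where Car14 was also highest. From DTL2 to DTL3 4 members passed against 9.58% of all genes: Car14 fell by 10.55 (SE 0.42, adjusted p = 1.75e-23), Car2 by 2.5 and Car13 by 1.43, and Car5b rose by 1.28. The call of Car13 was lost with a pseudocount of 5 (0.49), and quantile normalization added Car12, lower in DTL3 by 1.38. Aqp1, the water channel of the descending limb, stood at 6582 TPM in DTL2 and 11647 TPM in DTL3. The principal cell list summed to 1494 to 1881 TPM in DTL3, where Aqp2 averaged 12.7 TPM. Its part in the DTL3 levels was not tested.

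At the turn of the loop, Car8 and Car2 fell from DTL3 to ATL, by 1.99 and 1.48, and the other 7 members did not pass, against 14.6% of all genes called. ATL mice ranged widely in genes detected, and Car8 read 10.9 TPM in mouse 6 against 1.03 to 2.53 in the others. With mice 2 and 3 alone Car12 was also called, at 1.18. A pseudocount of 0.1 added a call of Car4, 2.05 lower in ATL (adjusted p = 0.0335). From ATL to MTAL 4 members passed against 28.1% of all genes: Car4 rose by 8.21 (SE 0.41, adjusted p = 2.93e-21) and Car2 by 5.17 (SE 0.17), and Car5b fell by 2.60 and Car3 by 1.97. Without ATL mouse 2 Car12 was also called, lower in MTAL by 1.15, and with ATL mice 4 and 6 alone so were Car12 (1.64) and Car8 (1.37). With all mice and a pseudocount of 0.1 Car12 was called as well (1.04, adjusted p = 0.0367). The call of Car3 was lost with a pseudocount of 5 (0.77). Car15 was 0.31 higher in MTAL and not called. Without MTAL mouse 2 it was 0.80 higher in ATL (adjusted p = 0.212), while quantile normalization of all mice called it 1.25 higher in MTAL. Slc9a3 averaged 1.58 TPM in ATL and 130 TPM in MTAL.

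MTAL and CTAL differed little over the whole table, with 3.15% of genes called, and 3 members were among them, all higher in CTAL. Car15 rose by 9.48 (SE 0.53, adjusted p = 3.59e-18), or by 10.59 without MTAL mouse 2, and Car12 by 5.49 (SE 0.31, adjusted p = 6.62e-18). Car8 rose by 1.3, a call lost without MTAL mouse 2 (1.19, adjusted p = 0.0949) or mouse 3 (1.19, adjusted p = 0.133) and with quantile normalization (0.99, adjusted p = 0.0587) or a pseudocount of 5 (0.63). Car2 and Car4 did not pass, with differences of 0.42 and -0.06 (MTAL minus CTAL). Of the partners 8 passed, all higher in CTAL, among them Atp6v1b1, a proton pump subunit, at 173 against 21 TPM. The shared intercalated list summed to 137 to 231 TPM in CTAL and 8.14 to 27.6 TPM in MTAL. Its members Foxi1, Atp6v1g3 and Rhcg averaged 0.445, 0.456 and 1.28 TPM in CTAL, and Slc26a4 0.733 TPM. The part of intercalated cells in the CTAL levels was not tested.

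From CTAL to DCT 4 members passed against 4.35% of all genes. Car4 fell by 5.38 (SE 0.39, adjusted p = 3.82e-15), or by 5.73 without DCT mouse 1, and Car15 by 2.17 (SE 0.53, adjusted p = 0.00333), Car12 rose by 1.40 and Car8 by 1.14. The call of Car8 was lost whenever any mouse of CTAL or DCT was left out (adjusted p 0.0557 to 0.165), and with a pseudocount of 0.1 the calls of Car15 and Car8 were both lost. That of Car8 was also lost with a pseudocount of 5 (0.79), with no filter and with pieces averaged as TPM. Type A, type B and shared intercalated markers summed here to 122 to 150, 410 to 494 and 1506 to 1614 TPM, and principal markers to 559 to 643 TPM. Of the partners 11 were higher in DCT and 3 in CTAL.

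From DCT to CNT Car12 rose by 3.09 (SE 0.35, adjusted p = 2.52e-09), Car2 by 2.65 (SE 0.18, adjusted p = 1.80e-15) and Car4 fell by 2.36 (2.01 without DCT mouse 1), against 5.22% of all genes called. Car8 was 1.04 lower in CNT, which was not called (adjusted p = 0.111) but was with a block for mouse number (1.04, adjusted p = 0.0497), median ratio rescaling (1.36) and quantile normalization (1.28). Car15 was 1.53 higher in CNT, with no overlap of the mice, and did not pass (SE 0.59, adjusted p = 0.0959), with a spread estimated over all groups. With a pseudocount of 5 it was called (1.52, adjusted p = 0.00273). Of the partners 16 passed and all 16 were higher in CNT, among them Slc26a4, the chloride bicarbonate exchanger pendrin of type B cells, at 2475 against 271 TPM, and Atp6v1b1, at 1004 against 184 TPM. The shared intercalated list summed to 1506 to 1614 TPM in DCT and 6262 to 7039 TPM in CNT, and its part in the rise of Car2 and Car12 was not tested.

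CNT and CCD were the most alike pair, with 1.12% of all genes called and no member among the calls (0 of 9 by limma). At an unadjusted p under 0.05 the count was 3 of 9, against 6.99% of all genes. Car8 differed most, at 5.69 TPM in CNT and 1.93 TPM in CCD with no overlap of the mice (1.19, SE 0.37, adjusted p = 0.0961), and with a block for mouse number it was called (1.24, adjusted p = 0.0314). Car2, Car12 and Car15 were 0.15, 0.41 and 0.30 higher in CNT, and Car4 and Car5b 0.86 and 0.32 higher in CCD, none of them called. Without CCD mouse 4 the difference of Car4 was 0.48. Of the 28 partners 1 passed.

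From CCD to OMCD the members parted, with 4 calls against 12.1% of all genes. Car15 fell by 4.63 (SE 0.48, adjusted p = 4.27e-10) and Car12 by 1.64 (SE 0.29, adjusted p = 2.90e-05), Car5b rose by 1.97 (SE 0.13, adjusted p = 9.54e-16) and Car3 rose by 1.06, a call that was lost when CCD mouse 1 or 2 or OMCD mouse 1 or 3 was left out (adjusted p 0.0504 to 0.151), with quantile normalization (0.23, adjusted p = 0.738), with median ratio rescaling (0.87) and with a pseudocount of 5 (0.35). Adipocyte markers summed to 10.3 to 16.4 TPM in CCD and 34.4 to 56.1 TPM in OMCD, and skeletal muscle markers to at most 0.325 TPM in CCD and 1.01 to 1.65 TPM in OMCD. Endothelial markers summed to 123 to 211 TPM in CCD and 364 to 486 TPM in OMCD. Between 13375 and 13813 genes reached a TPM of 1 in CCD mice and 17213 to 20867 in OMCD mice. What part these markers and gene numbers had in the differences of Car3 and Car5b was not tested. Car2 did not pass (0.36, SE 0.15, adjusted p = 0.07). The type B list summed to 2746 to 4188 TPM in CCD and 86.2 to 123 TPM in OMCD, while the type A list stood at 999 to 1140 and 2194 to 3058 TPM. Slc26a4 averaged 1769 and 4.4 TPM, and Slc4a1, the basolateral anion exchanger of type A cells, 496 and 1582 TPM. Car15 and the type B list were both lower in OMCD, over groups that also differ in region, and the part of type B cells was not tested. Of the partners 6 were higher in CCD and 3 in OMCD.

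From OMCD to IMCD 4 members passed, all lower in IMCD, against 18.6% of all genes. Car12 fell by 8.27 (SE 0.33, adjusted p = 7.08e-25), Car2 by 4.48 (SE 0.17, adjusted p = 2.49e-25), Car15 by 4.16 and Car4 by 1.55, the last a call lost with a pseudocount of 5 (0.51, adjusted p = 0.105). Car3, 0.95 lower in IMCD and not called (adjusted p = 0.0828), was called with a pseudocount of 0.1 (2.49, adjusted p = 0.00213). The median size was 0.95 over the members and 0.44 over all genes. Intercalated markers summed to 1.91 to 6.31 TPM (shared), 1.52 to 2.37 TPM (type A) and 0.217 to 0.523 TPM (type B), and principal markers to 28216 to 34912 TPM, against 40738 to 58276 TPM in OMCD. Of the partners 22 passed, 21 of them lower in IMCD. Slc4a7, a sodium bicarbonate cotransporter, was the exception at 72.5 against 2.10 TPM. Car2 was the only member other than Car5b with a mean above 10 TPM in IMCD, at 101 ± 14.3 TPM (n = 3).

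**Figure D3:**
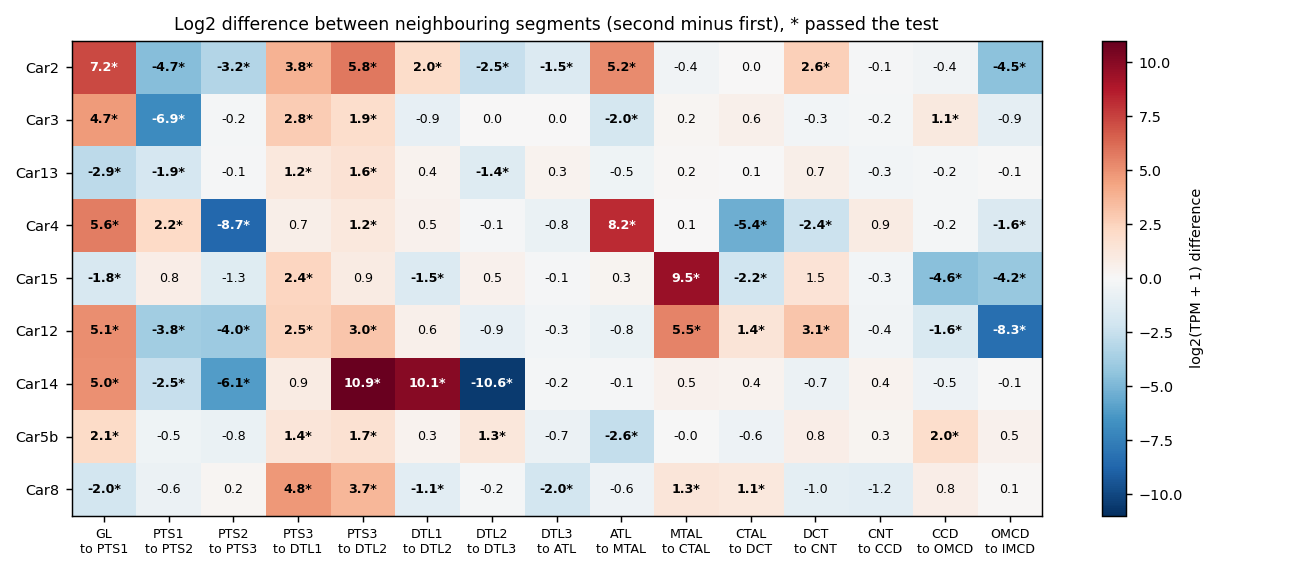
Colour and numbers give the log2(TPM + 1) difference of each gene between neighbouring groups (second minus first, red higher in the second), and asterisks mark calls at an adjusted p under 0.05 and a difference of at least 1. The DTL1 to DTL2 column compares limbs of short and long loops, which do not follow each other. Car14 has the deepest colours around DTL2 (10.91 and 10.05 up, then 10.55 down), Car4 rises into MTAL and Car15 into CTAL (8.21 and 9.48) and both fall into DCT, and the CNT to CCD column has no call.

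**Figure D4:**
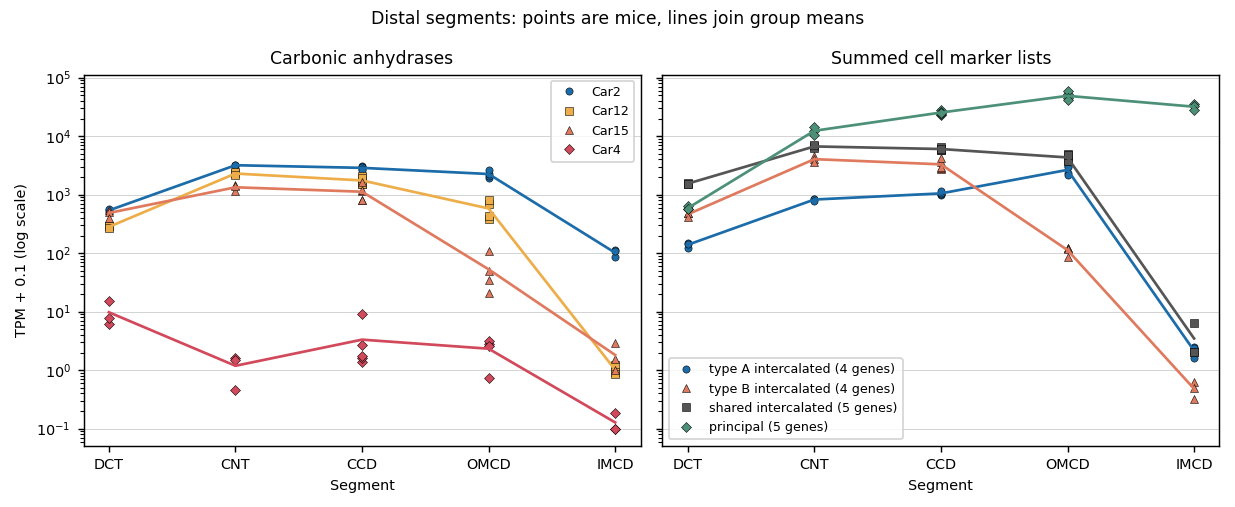
The left panel plots Car2, Car12, Car15 and Car4 and the right panel the summed TPM of 4 cell marker lists over the 5 distal groups, as TPM + 0.1 on a log scale with points for mice and lines through group means. Between CCD and OMCD Car15 and the type B list drop steeply, Car2 is a little lower (0.36, not called) and the type A list is higher, and all 3 intercalated lists are near 0 in IMCD, where Car2 remains at 101 TPM.

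Of the other 7 carbonic anhydrase genes none had a group mean above 54.5 TPM. Car1 and Car6 did not pass the filter, with no group mean above 0.998 TPM. Car9, a membrane-spanning enzyme known as a target of hypoxia signalling, and Car5a, the other mitochondrial enzyme, were highest in the straight proximal tubule, with Car9 at 44.5 and 54.5 TPM and Car5a at 40.7 and 28.1 TPM in PTS2 and PTS3, against 5.07 and 0.208 TPM in PTS1. In PTS3 each of the 2 exceeded the sum of the 9 members, 17.5 TPM. Car11, which lacks catalytic activity, peaked at 18.1 TPM in MTAL, Car7 at 9.72 TPM in GL and Car10 at 5.26 TPM in DTL1.

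Over the 15 group means of log2(TPM + 1), the members resembled each other little. The closest pairs were Car2 and Car12 (Pearson's r = 0.81), Car12 and Car15 (0.79) and Car2 and Car15 (0.63), and Car3 and Car14 stood at 0.54, while Car5b and Car15 had the lowest value at -0.48. Among 12070 genes with a mean of at least 10 TPM in some group, those most like each member were, for Car12, Wdr72 (0.934), the proton pump subunit Atp6v1h (0.920) and Tmem52 (0.914), and for Car2, Gstt1 (0.895), the transcription factor Tfcp2l1 (0.869) and Isca1 (0.868). Car15 was most like AC078895.1 (0.968), Rasd2 (0.943) and Tmem151a (0.938). Car3 was followed by Stab2 (0.979) and Clec2h (0.975), both highest in PTS1, and Car13 by Kcnj12 (0.953), Lbx2 (0.933) and Tmem26 (0.928), all highest in GL. For Car4 the nearest were Asb9 (0.878), Dcun1d4 (0.869) and Hao2 (0.840), for Car5b Arhgap27os2 (0.925), the receptor Egfr (0.911) and Bid (0.900), for Car8 Ppp1r3f (0.894), Traf1 (0.868) and Rassf9 (0.868), and for Car14 Camk1g (0.817), Pklr (0.803) and Folh1 (0.802). These are descriptions over 15 means that share the segments, and the closest gene is the best of many.

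Promoters are shown for Car12 and Car15, the members of the distal group with a RefSeq entry that are both high from CTAL to CCD. RefSeq entries from 250 bases before to 50 after the gene start were found for 5 members (Car4, Car5b, Car12, Car14 and Car15). Capitals mark matches to the motifs searched.
Car12, GRCm38.p6 chr9:66713436-66713735, plus strand: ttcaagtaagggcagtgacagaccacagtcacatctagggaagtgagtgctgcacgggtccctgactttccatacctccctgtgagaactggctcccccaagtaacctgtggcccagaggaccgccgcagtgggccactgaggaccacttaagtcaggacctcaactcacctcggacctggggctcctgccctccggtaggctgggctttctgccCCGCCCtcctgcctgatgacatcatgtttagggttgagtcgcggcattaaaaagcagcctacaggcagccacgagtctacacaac
Car15, GRCm38.p6 chr16:17838137-17838436, minus strand: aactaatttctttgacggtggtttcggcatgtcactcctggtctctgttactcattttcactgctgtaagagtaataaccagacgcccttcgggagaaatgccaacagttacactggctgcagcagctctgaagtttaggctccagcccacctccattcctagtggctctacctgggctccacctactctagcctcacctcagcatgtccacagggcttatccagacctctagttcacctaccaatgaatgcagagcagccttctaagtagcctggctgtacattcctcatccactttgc
On both strands the letters searched were TATAAA (in 13.6% of 32817 promoters of the same length), GGGCGG (35.6%), TGTTTAC (3.6%), AAGGTCA (4.7%), GTTAAT (7.1%), CAAAGTCCA (0.5%), AACCGGTT (0.1%) and TGACGTCA (1.8%). Car12 held GGGCGG once, on the other strand, and Car15 held none of the letters in this window. Car5b held GGGCGG at 2 places, Car4 held TATAAA after its start, and Car14 held none.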

How the data were processed

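Ultra-low-input RNA-seq of microdissected mouse tubule segments and glomeruli was deposited by the authors as a table of TPM per gene and sample. The submitters' processing notes name STAR 2.5.4a and RSEM 1.3.0, and the genome build and annotation of the table are not given in the sources used here. All 93 sample columns were used, and they summed to 999998.6 to 1000190.3 TPM. The smallest value above 0 is 0.01 in tubule columns and 0.1 in glomerulus columns. Depth is unknown, so no counting interval is given. One PTS2 column matching no title was used as a mouse without a number, and 3 single-cell samples were not analysed here.

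Pieces of 1 mouse and segment were averaged, as TPM for levels and as log2(TPM + 1) for tests. The 33793 genes reaching 1 TPM in 3 or more mice were fitted with limma 3.58.1 in R 4.3.3 (lmFit, eBayes with trend), the spread being estimated over all 15 groups together, with Benjamini-Hochberg adjustment over genes within each test. The tests were the moderated F-test, an intersection-union test for a group above all 14 others, and 15 two-sided neighbouring contrasts. On data simulated with genes raised in CCD, the F-test, the CCD intersection-union test and the neighbouring contrasts from CNT to IMCD were tried first. The other contrasts and groups were not tried on simulated data. P-values measure the spread between these mice. The members, lists and rules were chosen with earlier results of these data known. Named genes were the members, genes of the marker lists, the other family genes, the partner list and the 3 genes most like each member, passing over Gm, Rik, mitochondrial, ribosomal and -ps names, and a few items under this rule are left out of the text. Alternatives were other pseudocounts, filters and scalings, averaging as TPM, a replicate block, subsets of ATL mice, GL and DTL1 left out, each mouse left out and, chosen after seeing the data, MTAL mouse 2, DCT mouse 1 and CCD mouse 4 left out together. Coding sequences came from GENCODE M21 and promoters from RefSeq. Tables were handled in pandas 2.3.3 (Python 3.11.15) and plots drawn in matplotlib 3.10.9.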

Additional observations from a re-analysis of the deposited data

Results flagged for a closer look

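In groups of 4 or 5 mice, 45 combinations of member and group were tested for a mouse set apart from the others, and 5 were found, where chance alone flags about 1 in 20 if values are normally spread, which low TPM values are not. In CCD, mouse 4 stood apart for Car4 (9.11 TPM against 1.27 to 2.60 in the other 4 mice) and Car14 (2.78 TPM against 0.125 to 0.415), and its Slc34a1 level was 47.6 TPM against 7.89 to 17.9. The whole proximal list summed to 491 TPM in mouse 4 and 451 TPM in mouse 3, where Car4 read 1.64 and Car14 0.125 TPM. The part of proximal cells in these levels was not tested. In ATL, mouse 6 stood apart for Car8 (10.9 TPM against 1.03 to 2.53 in the other 3 mice) and for Car14 (0.600 TPM against 0 in all 3 others). In PTS2, mouse 4 read 23.5 TPM for Car5b against 20.4 to 20.9 TPM in the other 4 mice.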

How the results depend on the processing

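Of the 66 calls of members between neighbours, 45 held in every alternative and in every fit without 1 mouse. With quantile normalization 2 calls from PTS3 to DTL1 changed sign and were no longer calls. The limma contrasts then gave 0.07 for Car5b (adjusted p = 0.778) and 0.13 for Car13 (adjusted p = 0.730), higher in PTS3. By construction, the call of Car13 as highest in GL also changed once GL and DTL1 were left out, where PTS1 led by 0.42. Quantile normalization gave 2 calls in place of 7 from PTS3 to DTL1 and 5 in place of 8 from PTS3 to DTL2. Shares of all genes called were computed for the main fit only. A pseudocount of 5 gave 5 from PTS3 to DTL2 and 2 in place of 4 from DTL1 to DTL2, as did median ratio rescaling for the latter (2), and a pseudocount of 0.1 gave 2 in place of 4 from CTAL to DCT. With the replicate block 1 member (Car8, 1.24) was called from CNT to CCD in place of 0, Car8 was called from DCT to CNT (1.04), and the call of Car15 from DTL1 to DTL2 was lost (1.37). The samples were not treated as paired, because the labels do not say whether equal numbers mean the same animal, and the main tests took all mice as independent. Of 290 same-number pairs 19 had deviations correlated over 0.1. Different-number pairs were not counted in this way, so that count cannot decide whether mice were shared. As a hint from the data, 26 of 53 mice correlated best with a mouse of their own number, where 11.7 would if any mouse of another group were equally likely. Leaving out 1 mouse moved the number of members called from PTS3 to DTL1 between 7 and 8, from PTS3 to DTL2 between 7 and 8, from DTL1 to DTL2 between 2 and 4, from ATL to MTAL between 4 and 5, from MTAL to CTAL between 2 and 3, from CTAL to DCT at 3 throughout (4 in the full set), from CCD to OMCD between 3 and 4, and of members marking a group between 3 and 4. The 9 members passed the F-test in every fit. Where not stated, the cause of a change was not tested. A pseudocount of 5 ended 16 of the 66 calls, and one of 0.1 ended 3 and added 8.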
